A study of Homo sapiens with 12 samples.

Results

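This account follows dexamethasone (DEX), a synthetic glucocorticoid, in breast cancer cells that were also given SH4-54. The comparison set the 3 wells with both compounds against the 3 wells with SH4-54 alone, 6 of the 12 RNA-seq libraries of the series, and covered every gene with enough counts. SH4-54 is a small-molecule inhibitor of the transcription factors STAT3 and STAT5. DEX was used at 1 µM and SH4-54 at 8 µM, each for 24 h. Both groups compared thus carried SH4-54, and they differed by DEX. The other 6 libraries, 3 with DEX alone and 3 with no drug, gave the DEX effect without SH4-54. The cells were MDA-MB-231, an established human triple-negative breast cancer line with mesenchymal features, so all results are from 1 cell line. The labels speak of replicate wells and not of separate cultures, so p-values measure the spread between these wells, which may be technical. No source used here names the vehicle.

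Glucocorticoids enter the cell and bind the glucocorticoid receptor, encoded by NR3C1, which is held ready by heat shock chaperones in the cytoplasm. The bound receptor moves to the nucleus, binds DNA elements near genes such as TSC22D3 and FKBP5 and raises their transcription. It also restrains inflammatory genes, in large part through the factors NF-kB and AP-1. STAT3 and STAT5 are known to share regulatory regions with the receptor, and STAT3 signalling is often active in triple-negative breast cancer.

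The 6 libraries held 25577213 to 35758236 counted reads, and the deepest was well 3 with both compounds. The first principal component of their log2 CPM parted both groups with 59.9% of the variance (CPM, read counts brought to a common library size with TMM scaling). The second held 11.8% and put the wells with both compounds far apart, well 2 at 17.5, well 1 at -0.75 and well 3 at -16.7. Of the line's markers, VIM, the mesenchymal filament protein, stood at 1045 to 1292 CPM, while ESR1 and PGR, the oestrogen and progesterone receptors, stayed at or below 0.45 CPM. ERBB2, the HER2 receptor, whose amplification the triple-negative class lacks, was counted at 73.8 to 87.0 CPM, the epithelial keratin KRT18 at 290 to 328 CPM and the epithelial cadherin CDH1 at 5.29 to 11.8 CPM. The 12 blood cell markers summed to 3.81 to 4.92 CPM with SH4-54 and to 3.73 to 4.71 CPM with both compounds, with HBB at 0. The 14 endothelial and fibroblast markers summed to 14.2 to 15.9 CPM with SH4-54 and to 15.7 to 19.7 CPM with both, carried by KDR and PDGFRB, with CDH5 at 0 in the 6 libraries. Their part in the results was not tested.

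DEX changed the RNA level of a large share of the genes in the presence of SH4-54, mostly by small amounts. Of 14184 genes tested, 5736 passed an adjusted p of 0.05 in edgeR's quasi-likelihood test, which is 40.4% of them. The risen genes numbered 2854 (20.1%) and the fallen genes 2882 (20.3%). Counts of risen and fallen list members below are to be read beside these shares. Changes below 1.2-fold made up 1506 of the rises and 1240 of the falls. A change of at least 2-fold was seen in 503 genes (3.55%), 291 upwards (2.05%) and 212 downwards (1.49%). Large changes were more often rises: 31 genes rose at least 8-fold and 11 fell at least 8-fold. In 6869 genes (48.4%) the wells of both groups did not overlap. Genes named by rule, save those always kept, had to meet this, so it is no further support for them. The median log2 fold change over all genes was 0.0047, and the median standard error was 0.064. In bulk RNA, a change in the number of cells of a state and a change in RNA per cell cannot be told apart.

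The textbook glucocorticoid target genes rose together under SH4-54. Of 30 tested members of the glucocorticoid-induced list, 28 rose, 1 fell and 1 did not pass, with a median log2 fold change of 1.88 (all genes: 0.0047). TSC22D3, which encodes the anti-inflammatory protein GILZ, stood at 5.95, 7.02 and 8.07 CPM with SH4-54 and at 77.7, 61.3 and 87.5 CPM with both compounds. All 3 wells with both compounds lay far above the SH4-54 wells, and the log2 fold change was 3.44 ± 0.12 (standard error; edgeR adjusted p = 2.74e-11). FKBP5, a co-chaperone that dampens the receptor's own signal, rose from 54.0, 56.8 and 52.3 CPM to 202, 181 and 271 CPM (log2 fold change 2.0 ± 0.11, adjusted p = 2.11e-09). PER1, a clock repressor with a known receptor element, rose from 1.24, 1.28 and 1.93 CPM to 9.71, 9.13 and 9.56 CPM (2.68 ± 0.14). The groups did not overlap for any of these genes, which the naming rule required of PER1.

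Among the other targets, DUSP1, a phosphatase that switches off MAP kinases, rose by 1.86 ± 0.05 on the log2 scale. BIRC3, an inhibitor of apoptosis, rose from 142, 150 and 148 CPM to 755, 718 and 692 CPM (2.30 ± 0.04). KLF9, a transcription factor, rose by 2.29 ± 0.20, and NFKBIA, the cytoplasmic brake on NF-kB, by 0.97 ± 0.06. The metallothioneins MT1E and MT2A, which bind metal ions, rose by 2.78 ± 0.06 and 2.09 ± 0.04. They belong to a family of near-identical genes, so the split of reads between them is uncertain. ALOX15B, a lipoxygenase, had no count in the SH4-54 wells and 3.22, 2.17 and 7.85 CPM with both compounds, at least 120-fold higher against a floor of 3 counts over the SH4-54 group. ZBTB16, a zinc finger repressor, likewise had no count with SH4-54 and reached 0.35, 0.44 and 0.76 CPM, at least 14-fold higher. With both of these genes at their bounds, the list median stayed 1.88. The fallen member was CRISPLD2, a secreted protein, with 22.3, 22.3 and 21.7 CPM against 14.8, 17.0 and 15.4 CPM (-0.49 ± 0.07). TNFAIP3, an NF-kB inhibitor, did not pass (0.05 ± 0.08, adjusted p = 0.662).

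The receptor's own transcript fell. NR3C1 stood at 476, 484 and 479 CPM with SH4-54 and at 285, 271 and 272 CPM with both compounds, a 1.74-fold decrease (log2 fold change -0.80 ± 0.03, adjusted p = 2.74e-11). The wells within each group were tight and the groups did not overlap. NR3C2, the mineralocorticoid receptor, fell by 0.54 on the log2 scale. HSP90AA1, the inducible cytoplasmic HSP90 that holds the receptor, fell from 1802, 1800 and 1730 CPM to 1340, 1470 and 1411 CPM (-0.34 ± 0.05). In the list of the receptor, its chaperones and its coregulators, 6 of 20 members rose and 6 fell, with a median of 0.0064 (all genes: 20.1% risen, 20.3% fallen).

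**Figure D1:**
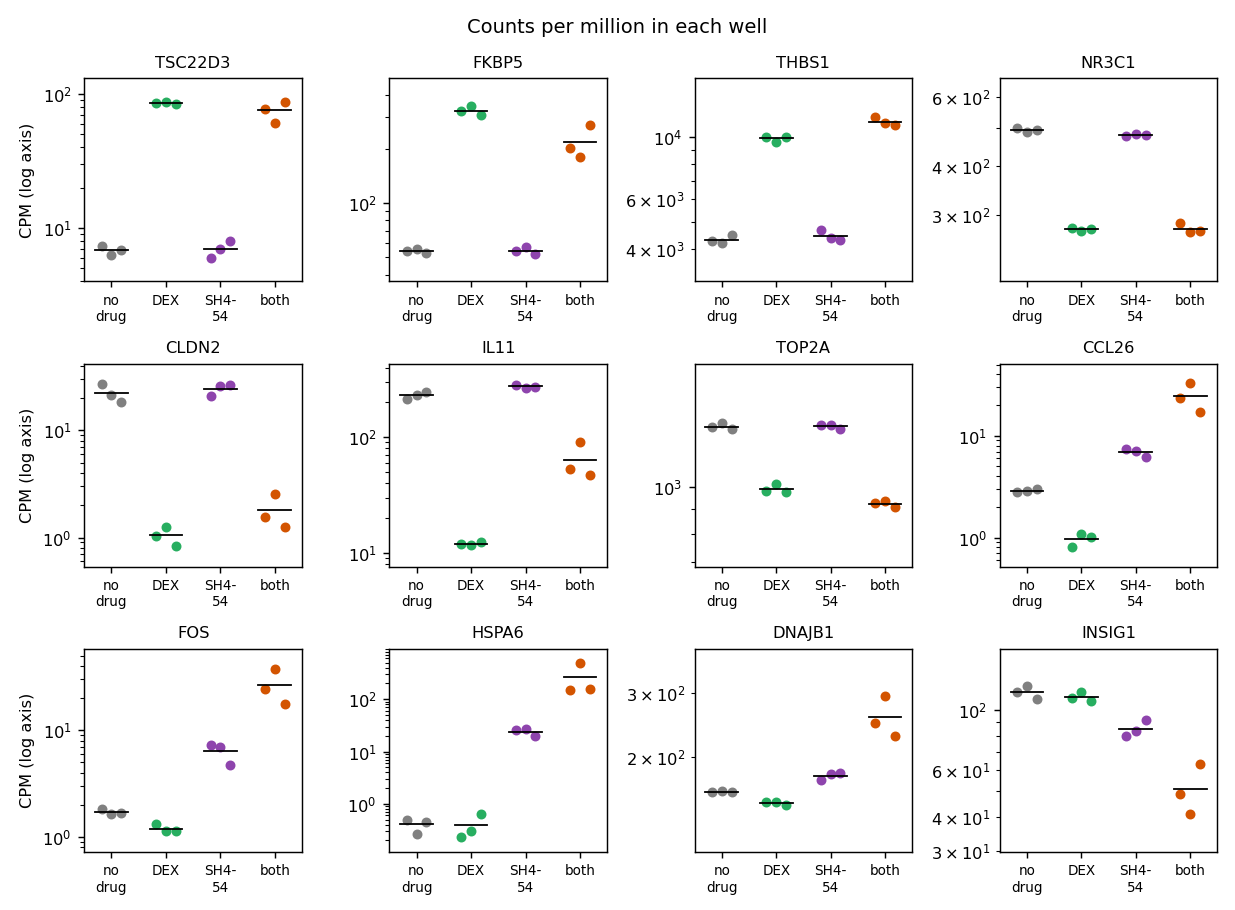
CPM on a log axis (y, its range set for each gene) in the 3 wells of each of the 4 groups (x) for 12 genes, with a bar at the group mean. TSC22D3, FKBP5 and THBS1 are higher and NR3C1, CLDN2, IL11 and TOP2A lower with both compounds than with SH4-54, while CCL26, FOS, HSPA6 and DNAJB1 rose and INSIG1 fell with DEX in the SH4-54 wells.

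The largest rises named by rule also included a transporter subunit, secreted factors and surface receptors. MAP2, a microtubule-associated protein, rose from 0.65, 0.68 and 0.31 CPM to 10.2, 8.33 and 17.6 CPM, the largest rise among the genes named by rule (4.46 ± 0.34). EDN2, the vasoconstrictor peptide endothelin 2, rose from 0.38, 0.38 and 0.54 CPM to 5.36, 4.82 and 5.38 CPM (3.58 ± 0.20). CALCR, the calcitonin receptor, rose from 1.41, 1.35 and 1.39 CPM to 12.3, 12.3 and 12.4 CPM (3.15 ± 0.11). For EDN2 and CALCR the 3 wells with both compounds lay close together, while MAP2 was spread, with well 2 lowest and well 3 highest. NPR3, the clearance receptor for natriuretic peptides, showed the same order of wells at 50.3, 38.3 and 72.1 CPM, against 6.84, 5.93 and 6.64 CPM with SH4-54 (3.05 ± 0.18). ANGPTL4, a secreted inhibitor of lipoprotein lipase and a member of the glucocorticoid-induced list, rose by 3.14 ± 0.08 and SAA1, an acute phase protein with a near-identical copy SAA2, by 2.83 ± 0.14.

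SLC7A7, the light subunit of a cationic amino acid transporter, rose from 1.17, 1.58 and 1.12 CPM to 17.1, 12.2 and 23.0 CPM (3.77 ± 0.24, adjusted p = 1.59e-08). The full palindromic glucocorticoid response element, searched on both strands in the 250 bases before each annotated start, was in 34 of 15043 promoter windows of tested genes (0.226%). It was in 0 of 266 windows of genes that rose at least 2-fold and in 0 of 231 windows of genes that fell at least 2-fold. For an element this rare, 0 was a likely count in sets of this size. These counts thus cannot show that the changed genes lack it, and sites further away were not searched. A shorter form, AGAACA, which is a single arm of the element, was in 8.08% of all windows, 11.3% of those of genes up at least 2-fold and 12.1% of those of genes down at least 2-fold. By gene, it was in 29 of 185 genes up at least 2-fold (15.7%) and in 24 of 138 genes down at least 2-fold (17.4%). It was in 10.7% of all tested genes with a window and in 2 of 24 glucocorticoid-induced genes (8.33%). The SLC7A7 window holds it 73 bases before the start. That window was picked because SLC7A7 is among the leading risen genes and its window holds AGAACA. The sequence is RefSeq's for GRCh38.p14, chr14:22815872-22816121, minus strand, printed 5′ to 3′ with AGAACA in capitals. A match is a description of letters and not a binding site.
SLC7A7: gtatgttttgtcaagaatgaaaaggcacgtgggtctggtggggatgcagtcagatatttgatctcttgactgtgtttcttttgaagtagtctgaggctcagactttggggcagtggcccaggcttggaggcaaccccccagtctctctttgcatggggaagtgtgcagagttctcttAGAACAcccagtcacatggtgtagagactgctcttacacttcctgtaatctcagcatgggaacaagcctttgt

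Some highly counted transcripts rose as well, by less than the genes above. THBS1, the matrix protein thrombospondin 1, rose from 4661, 4363 and 4299 CPM to 11795, 11184 and 11053 CPM (1.35 ± 0.04). ANKRD1, a target of the YAP coactivator, rose from 1739, 1704 and 1743 CPM to 3930, 3697 and 3218 CPM (1.06 ± 0.06). DKK1, a secreted Wnt antagonist, rose by 1.24 ± 0.05. KRT7, a simple epithelial keratin, rose from 394, 406 and 411 CPM to 1132, 1066 and 1147 CPM (1.47 ± 0.04). CPM is not corrected for transcript length, so levels of different genes are not compared.

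The leading falls included a tight junction gene, a Wnt pathway receptor and a stress hormone. CLDN2, a tight junction protein, fell from 21.0, 25.9 and 26.5 CPM to 1.55, 2.57 and 1.26 CPM (-3.79 ± 0.20, adjusted p = 1.82e-09). LGR5, a receptor for R-spondins that marks epithelial stem cells, fell from 10.9, 12.3 and 11.5 CPM to 0.78, 1.27 and 1.12 CPM (-3.43 ± 0.13). GDF15, a stress-induced hormone, fell from 57.9, 68.8 and 72.1 CPM to 11.6, 14.2 and 16.3 CPM (-2.23 ± 0.11). In all 3 genes the groups lay far apart. Further falls were seen in ASB2, a ubiquitin ligase subunit (-2.52 ± 0.25), GBP2, a guanylate-binding protein (-1.89 ± 0.16), PDE7B, a cAMP phosphodiesterase (-1.74 ± 0.07), the transcription factor WT1 (-1.74 ± 0.14) and the epithelial factor ELF3 (-1.74 ± 0.10). The histone genes HIST2H2BA and HIST1H4K had larger fitted falls (-4.45 and -4.23), but their SH4-54 wells were far apart. HIST2H2BA stood at 3.02, 159 and 2.78 CPM with SH4-54, and its adjusted p of 0.0491 became 0.946 without SH4-54 replicate 2. HIST1H4K stood at 464, 21.5 and 386 CPM with SH4-54 and at 17.1, 15.9 and 13.8 CPM with both compounds. Histone genes occur in near-identical copies, so both are uncertain.

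Genes of late cell division fell as a block. Of 28 tested G2/M and mitosis genes, 27 fell and 0 rose, with a median log2 fold change of -0.41 (all genes: 0.0047). The exception was CDC20 (0.12 ± 0.05, adjusted p = 0.059), an activator of the anaphase-promoting complex, which rose without well 3 with both compounds. TOP2A, the topoisomerase that untangles chromosomes, fell from 1338, 1342 and 1315 CPM to 927, 932 and 908 CPM (-0.53 ± 0.03, adjusted p = 2.24e-09). The kinetochore motor CENPE fell by 0.77 and the kinetochore protein CENPF by 0.67 on the log2 scale, and CCNB1, the mitotic cyclin B1, fell by 0.41. Without SH4-54, 27 of the 28 G2/M and mitosis genes fell and 0 rose, with a median of -0.53. Of 29 tested genes of DNA replication, 2 rose and 7 fell, with a median of 0.0039. Without SH4-54, 1 of the 29 rose and 15 fell (median -0.12). The 2 that rose under SH4-54 were MCM5 and CDT1, both parts of origin licensing (0.13 ± 0.04 and 0.25 ± 0.07). Of the replication genes, 0 rose without SH4-54 replicate 2 or without well 2 with both compounds, while 6 rose without well 3. Among 16 G1 cyclins and inhibitors of cyclin-dependent kinases, 3 rose and 8 fell under SH4-54. The risen ones were CDKN1A, the inhibitor p21 (63.1, 67.2 and 68.3 CPM to 135, 129 and 124 CPM, 0.97 ± 0.05), CDKN1C, the inhibitor p57, and CCND3, cyclin D3 (0.63 ± 0.04). CDKN1B, the inhibitor p27, fell by 0.62.

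Inflammatory genes did not move in 1 direction. Of 22 tested NF-kB and AP-1 target genes, 8 rose and 10 fell, with a median of -0.17. IL11, a cytokine of the IL-6 family, fell from 284, 266 and 274 CPM to 52.5, 90.3 and 46.6 CPM (-2.12 ± 0.16, adjusted p = 9.68e-08). PLAU, the urokinase protease, fell from 227, 222 and 221 CPM to 82.1, 127 and 86.5 CPM (-1.18 ± 0.11), and CSF1, the macrophage growth factor, fell by 0.75. In IL11 and PLAU, well 2 with both compounds stood above the other 2 wells and still below every SH4-54 well. PTGS2, the prostaglandin enzyme COX-2, rose from 4.43, 3.94 and 3.55 CPM to 9.83, 12.2 and 8.83 CPM (1.36 ± 0.16). CXCL8, the neutrophil attractant interleukin 8, rose by 0.63 ± 0.09 and the protease MMP3 by 1.92 ± 0.25. IL6 itself fell by 0.50. Of 18 NF-kB subunits and inhibitors, 3 rose and 4 fell, and 5 rose without well 3 with both compounds, shares near those over all genes (20.1% and 20.3%). The 3 that rose were NFKBIA, TNIP1 (0.77) and BIRC3.

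The transcripts of the factors that SH4-54 is directed at did not pass when DEX was added, while more of their known target genes rose than fell. STAT3 stood at 198, 191 and 200 CPM with SH4-54 and at 203, 194 and 220 CPM with both compounds (0.07 ± 0.04, adjusted p = 0.18). STAT5A (0.20 ± 0.08, adjusted p = 0.0555) and STAT5B (-0.10 ± 0.04, adjusted p = 0.0823) did not pass either. These calls sat near the threshold: STAT5A passed without SH4-54 replicate 3 (adjusted p = 0.00892), STAT3 passed without well 2 with both compounds (0.0309) and STAT5B without well 3 (0.0428). Of 34 tested STAT3 targets and JAK-STAT feedback genes, 17 rose and 6 fell, with a median of 0.19. Over all genes 20.1% rose and 20.3% fell, so the fallen share of the list is near that over all genes. DEX without SH4-54 gave 21 risen and 8 fallen of the 34, with a median of 0.21. More rises than falls were thus seen in both settings. CEBPB, a transcription factor of the acute phase response, rose from 18.9, 17.3 and 20.1 CPM to 58.4, 54.9 and 66.6 CPM (1.68 ± 0.07). NNMT, a nicotinamide methyltransferase, rose from 90.5, 110 and 112 CPM to 550, 435 and 638 CPM (2.38 ± 0.11). SOCS2, a cytokine feedback inhibitor, fell from 77.8, 77.4 and 78.7 CPM to 40.4, 45.1 and 40.1 CPM (-0.90 ± 0.05). SOCS3, the feedback inhibitor of STAT3 signalling, did not pass (-0.03 ± 0.04, adjusted p = 0.584).

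**Figure D2:**
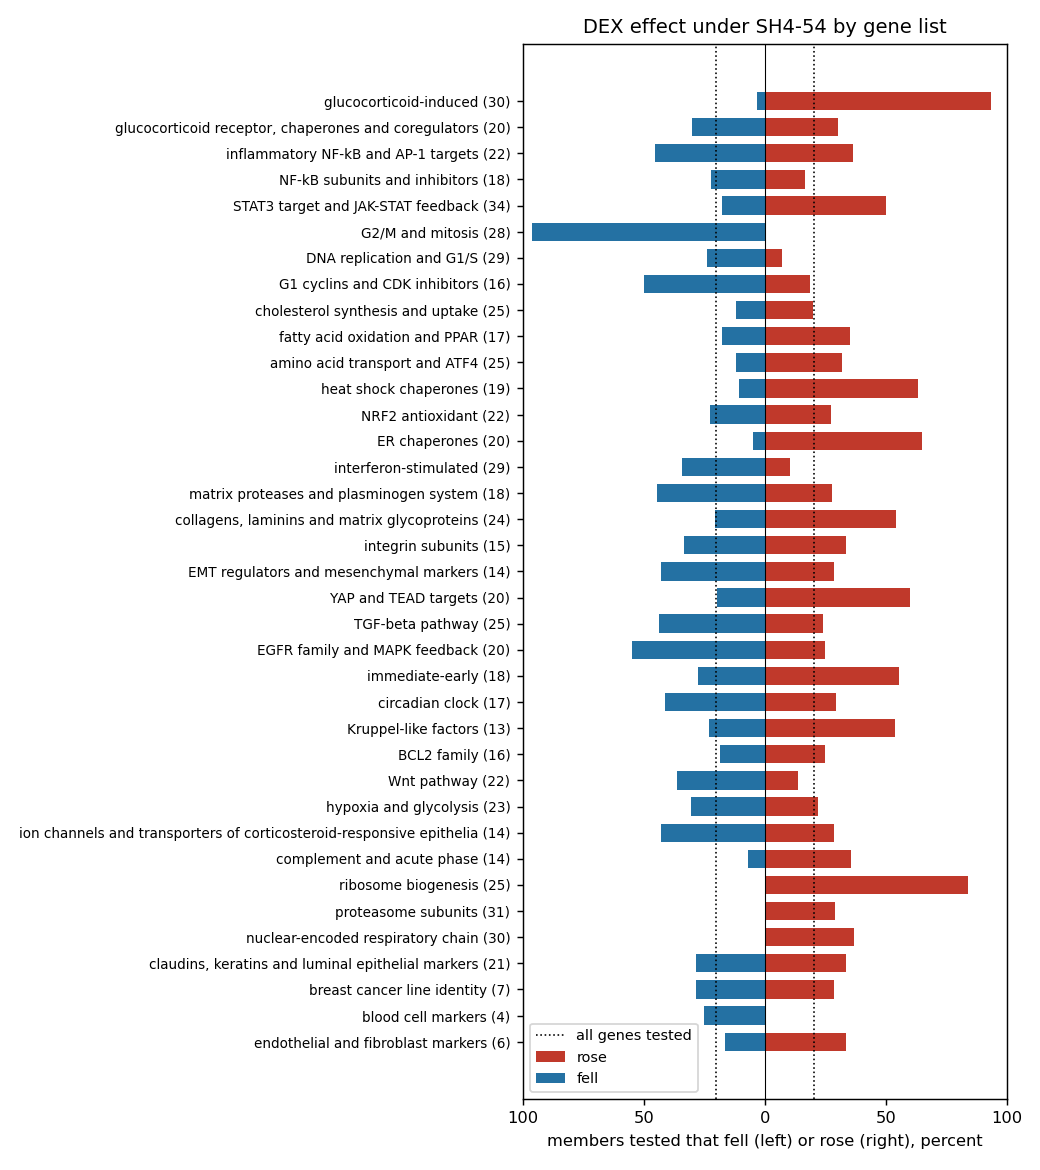
Percent of the tested members of each gene list (y, number tested in brackets) that rose (right) or fell (left) with DEX under SH4-54, with dotted lines at the shares over all genes tested (20.1% and 20.3%). The glucocorticoid-induced list has 28 of 30 members risen, G2/M and mitosis 27 of 28 fallen and ribosome biogenesis 21 of 25 risen.

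Matrix and growth factor genes changed in both directions. In the plasminogen system, the activator PLAT rose (0.64 ± 0.07) while the activator PLAU and its receptor PLAUR fell by 1.18 and 0.28. TIMP3, an inhibitor of metalloproteinases, fell from 230, 229 and 228 CPM to 66.8, 86.3 and 69.5 CPM (-1.63 ± 0.07). Over the matrix protease list, 5 of 18 members rose and 8 fell. Of 24 collagens, laminins and matrix glycoproteins, 13 rose and 5 fell, among them FN1, fibronectin, from 159, 146 and 151 CPM to 314, 305 and 420 CPM (1.19 ± 0.09) and COL8A1 (1.27 ± 0.07). ITGA5, the fibronectin receptor subunit, rose from 79.8, 79.9 and 78.6 CPM to 167, 153 and 194 CPM (1.11 ± 0.07), and of 15 integrin subunits 5 rose and 5 fell. The fallen count was 3 without SH4-54 replicate 2. Among regulators and markers of the mesenchymal state, 4 of 14 rose and 6 fell, with SNAI2, the factor Slug, at 1.25 ± 0.06 and CD44, a hyaluronan receptor, at -0.39.

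In the EGFR family and MAP kinase feedback list, 5 of 20 members rose and 11 fell. AREG, a ligand of EGFR, rose from 2.47, 2.1 and 2.39 CPM to 12.3, 8.91 and 11.5 CPM (2.23 ± 0.13), and EGFR itself by 0.52 ± 0.08. The feedback genes DUSP4 and SPRY1 fell by 0.97 and 0.99. Of 25 TGF-beta pathway genes, 6 rose and 11 fell. TGFB2, a ligand, rose by 0.54, while FST, which traps activin, fell from 136, 134 and 139 CPM to 54.9, 66.6 and 46.2 CPM (-1.29 ± 0.10). In the Wnt pathway, 3 of 22 rose, among them DKK1 and WNT5A (0.88 ± 0.11), and 8 fell, among them the R-spondin receptors LGR5 and LGR4 (-0.82). Of 20 YAP and TEAD targets, 12 rose and 4 fell. GADD45A, a growth arrest gene, rose by 1.10 and NT5E, the surface nucleotidase CD73, fell by 0.68. The clock list had 5 of 17 risen, with PER1 foremost by p, and 7 fallen, such as BHLHE41 (-1.34) and TEF (-1.17). The Kruppel-like factors had 7 of 13 risen and 3 fallen, and KLF15, a known receptor target, rose from 1.17, 1.01 and 1.62 CPM to 3.89, 3.91 and 4.54 CPM (1.71 ± 0.17).

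Epithelial and metabolic groups were also mixed. Of 21 claudins, keratins and luminal markers, 7 rose and 6 fell. KRT81, a hair keratin, rose from 452, 442 and 438 CPM to 795, 816 and 770 CPM (0.84 ± 0.04). CLDN4, a barrier-forming claudin, fell from 70.6, 72.2 and 72.7 CPM to 35.4, 39.5 and 33.5 CPM (-0.99 ± 0.05). Among 14 channels and transporters of corticosteroid-responsive epithelia, 4 rose and 6 fell. SCNN1A, a subunit of the epithelial sodium channel, rose from 1.10, 1.16 and 1.35 CPM to 4.74, 3.37 and 4.54 CPM (1.81 ± 0.18), as did SGK1, the kinase that stabilises that channel (1.89 ± 0.10). AQP3, a water and glycerol channel, fell by 1.19. In the BCL2 family, the anti-apoptotic MCL1 and BCL2L1 rose by 0.43 and 0.23 and the anti-apoptotic BCL2 fell by 0.53, with 4 of 16 risen and 3 fallen in all, or 5 fallen without SH4-54 replicate 1. These shares are near those over all genes (20.1% and 20.3%). Of 17 genes of fatty acid oxidation, 6 rose and 3 fell, led by ANGPTL4 and by PDK4, a brake on glucose oxidation (1.22 ± 0.13). Among the genes of low oxygen and glycolysis, 5 of 23 rose and 7 fell, against 20.1% and 20.3% over all genes. LOX, which crosslinks collagen, gave 0.72 ± 0.09 and EGLN3, an oxygen-sensing hydroxylase, gave -0.74 ± 0.07.

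Most ribosome biogenesis and endoplasmic reticulum chaperone genes rose, by small amounts. Of 25 ribosome biogenesis genes, 21 rose and 0 fell, with a median of 0.17 (all genes: 0.0047). NOP16, a nucleolar assembly protein, rose from 62.7, 61.5 and 62.9 CPM to 88.9, 87.7 and 82.0 CPM (0.47 ± 0.04), and BOP1 from 16.3, 16.0 and 15.2 CPM to 19.3, 23.5 and 20.1 CPM (0.41 ± 0.07). Of 20 endoplasmic reticulum chaperones, 13 rose and 1 fell, with HSPA5, the chaperone BiP, rising from 363, 364 and 343 CPM to 492, 536 and 512 CPM (0.53 ± 0.04). Of 31 proteasome subunits, 9 rose and 0 fell, so 29.0% were called, against 40.4% over all genes (20.1% risen). The count of 9 was unsteady, at 5 without SH4-54 replicate 1, 6 without replicate 3, 6 and 5 without well 1 and well 2 with both compounds, and 14 without well 3. Of 30 nuclear-encoded respiratory chain genes, 11 rose and 0 fell, a share of 36.7% against 20.1% over all genes, with 4 without SH4-54 replicate 1, 7 without well 1 with both compounds and 6 without well 2. In the NRF2 antioxidant list, 6 of 22 rose and 5 fell, shares near those over all genes (20.1% and 20.3%). GCLC, which limits glutathione synthesis, rose by 0.63, and SLC7A11, the cystine transporter, fell by 0.68. The fallen count of the NRF2 list was 3 without SH4-54 replicate 3 or without well 3 with both compounds.

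The DEX effect was then set beside the DEX effect without SH4-54, which comes from 6 other libraries and shares with it the estimate of the spread. Without SH4-54, 6397 genes passed (45.1%), 3104 up (21.9%) and 3293 down (23.2%). In 4060 genes (28.6% of those tested) both effects were called in the same direction. Of the genes risen under SH4-54, 1959 (68.6%) also rose without it, which is 63.1% of the genes risen there. Of the fallen, 2101 (72.9%) also fell without it, 63.8% of those fallen there. Of the 298 genes (2.1%) that rose at least 2-fold without SH4-54, 256 (85.9%) rose under it and 0 fell. Their median log2 fold change was 1.49 where they were chosen and 1.2 under SH4-54. Of the 385 genes (2.71%) that fell at least 2-fold without SH4-54, 269 (69.9%) fell under it and 5 rose, and the median went from -1.41 to -0.90. The reverse choice was made as well. The 291 genes that rose at least 2-fold under SH4-54 had a median of 1.51 there and 1.37 without it, whereas the 212 that fell had -1.32 under SH4-54 and -1.53 without it. Among genes with at least a 2-fold change, the fallen ones thus showed the smaller median effect under SH4-54 whichever comparison chose them. This did not hold for all 2882 genes that fell under SH4-54, whose median was -0.30 under it and -0.27 without it.

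The difference between both effects was tested gene by gene as the interaction of DEX and SH4-54. It passed in 553 genes (3.90%), with the DEX effect higher under SH4-54 in 346 (2.44%) and lower in 207 (1.46%). In 57 genes (0.402%) the difference was at least 2-fold, 49 higher (0.345%) and 8 lower (0.0564%). Of the 385 genes that fell at least 2-fold without SH4-54, 90 had a higher effect under it and 1 a lower effect. Of the 298 that rose, 38 had a lower effect and 1 a higher effect. These genes were chosen by the effect that the interaction subtracts, which by itself pushes the counts these ways. The reverse choice pushes the other way. The 291 genes that rose at least 2-fold under SH4-54 had 21 lower and 14 higher. The 212 that fell at least 2-fold under it had 23 higher and 2 lower. The count of 553 depended on single libraries. It was 365, 238 and 218 without no-drug replicate 1, 2 or 3, 258, 204 and 254 without DEX replicate 1, 2 or 3, and 507, 209 and 255 without SH4-54 replicate 1, 2 or 3. It was 296 and 303 without well 1 or well 2 with both compounds and 2046 without well 3. Of 49 genes named by rule and given here with such a difference, 21 passed in each of the 12 fits that left out a library.

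**Figure D3:**
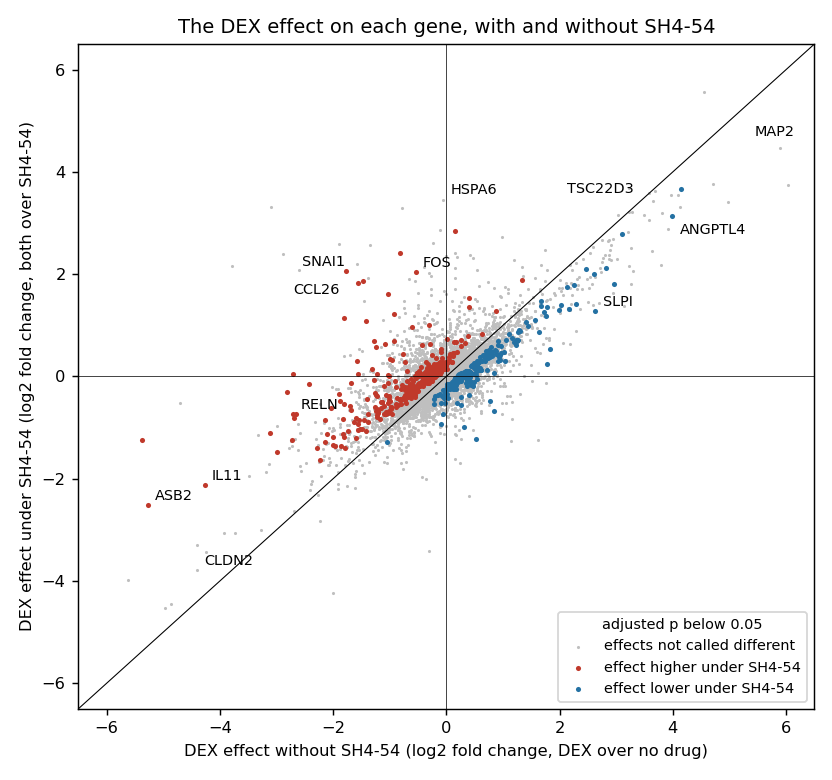
Log2 fold change with DEX without SH4-54 (x) and under SH4-54 (y) for 14175 genes, with 9 further genes beyond the axes, and the line of equal effects. Red and blue points are the genes whose effects differed at an adjusted p below 0.05, 346 higher and 207 lower under SH4-54 in all, with CCL26 and SNAI1 furthest above the line among the coloured genes that carry a label.

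A small number of genes went in opposite directions. Both effects were called with opposite signs in 43 genes, 33 of which rose under SH4-54 and fell without it. CCL26, the chemokine eotaxin-3, rose from 7.42, 7.02 and 6.17 CPM with SH4-54 to 23.6, 32.7 and 17.0 CPM with both compounds (1.82 ± 0.18). Without SH4-54 it went from 2.79, 2.88 and 3.02 CPM to 0.81, 1.10 and 1.02 CPM with DEX (-1.56 ± 0.30), so the effect differed by 3.38 ± 0.35 on the log2 scale (interaction adjusted p = 0.000318). SNAI1, the transcription factor Snail, rose from 1.75, 2.78 and 1.74 CPM to 7.46, 11.1 and 4.54 CPM (1.87 ± 0.30). Without SH4-54 SNAI1 went from 1.35, 0.66 and 1.37 CPM to 0.50, 0.45 and 0.26 CPM (-1.47 ± 0.52, interaction 3.34 ± 0.59, adjusted p = 0.00949). Both genes had their highest value in well 2 with both compounds. PPP1R15A, the stress phosphatase subunit GADD34, rose from 102, 104 and 98.1 CPM to 129, 174 and 110 CPM under SH4-54 (0.44 ± 0.11) and fell by 0.77 without it (interaction adjusted p = 0.00185). The elongation factor EEF2 (0.23 and -0.13), the lamin LMNA (0.12 and -0.28) and the coactivator CITED2 (0.36 and -0.18) did the same by smaller amounts.

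Immediate-early genes, which answer growth factors and stress within minutes, were among those whose DEX effects differed. Of 18 tested, 10 rose and 5 fell (median 0.54), against 2 risen and 9 fallen without SH4-54 (median -0.32). The difference passed in 6 genes, all higher under SH4-54. FOS, a subunit of AP-1, stood at 7.35, 6.98 and 4.75 CPM with SH4-54 and at 24.1, 37.5 and 17.6 CPM with both compounds (2.04 ± 0.22, adjusted p = 3.59e-06). Without SH4-54 it stood at 1.85, 1.66 and 1.69 CPM with no drug and at 1.32, 1.13 and 1.13 CPM with DEX, which did not pass (adjusted p = 0.292; interaction 2.58 ± 0.45, adjusted p = 0.00919). ATF3, a stress-induced factor, rose from 6.19, 6.57 and 5.52 CPM to 16.4, 20.8 and 15.9 CPM (1.53 ± 0.11, interaction 1.13 ± 0.16, adjusted p = 0.00252). JUN, the partner of FOS, rose by 0.29 ± 0.10 under SH4-54 and fell by 0.73 without it (interaction 1.01 ± 0.14), and here the wells overlapped, at 80.5, 79.4 and 77.5 CPM against 97.1, 116 and 77.4 CPM. ARC, which acts at synapses, rose from 3.33, 3.19 and 2.70 CPM to 15.7, 23.5 and 10.6 CPM, but it was at or below 0.17 CPM in the wells without SH4-54, and the interaction did not pass (adjusted p = 0.288). FOSL1 and FOSL2, further AP-1 subunits, fell by 0.53 and 0.47. The interaction count of 6 was 4 in 8 of the 12 fits without a library, 5 in 2 more, 6 without well 2 with both compounds and 11 without well 3.

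Heat shock genes formed a second such group. Of 19 tested, 12 rose and 2 fell under SH4-54 (median 0.16), against 3 risen and 5 fallen without it (median -0.050), and 10 rose without well 2 with both compounds. HSPA6, a strictly inducible HSP70, stood at 25.4, 27.1 and 19.4 CPM with SH4-54 and at 150, 483 and 156 CPM with both compounds (3.45 ± 0.36, adjusted p = 2.64e-06). All 3 wells lay far above the SH4-54 wells, with well 2 more than the others. In the wells without SH4-54 it was at or below 0.64 CPM, and the interaction did not pass (adjusted p = 0.303). HSPA6 has a near-identical copy, HSPA7, whose counts were 9, 196 and 1661 in the wells with both compounds and at most 1 in every other library, so the division of reads between them is uncertain. DNAJB1, an HSP40 co-chaperone, rose from 173, 180 and 181 CPM to 248, 294 and 229 CPM under SH4-54 (0.53 ± 0.06). Without SH4-54 DNAJB1 stood at 161 CPM in each no-drug well and at 151, 151 and 149 CPM with DEX (interaction 0.63 ± 0.09, adjusted p = 0.00252). HSPB1, the small chaperone HSP27, rose from 44.5, 44.1 and 43.6 CPM to 64.1, 83.8 and 63.5 CPM (0.68 ± 0.08). The difference for HSPB1 (0.50 ± 0.12, adjusted p = 0.0311) was lost in 8 of the 12 fits without a library. HSPA1A and HSPA1B rose by 1.96 and 1.00, and as near-identical copies they are uncertain singly. Against this, HSP90AA1 and DNAJA1 fell under SH4-54 by 0.34 and 0.20. The interaction passed in 6 members, all higher: DNAJB1, HSPA1B and HSPH1, which passed in each of the 12 fits without a library, and HSPB1, DNAJB4 and CHORDC1, which passed in 4, 3 and 3 of them. The count of members that passed, whichever they were, was 10 without well 3 with both compounds and 3 to 6 in the other fits.

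A short sequence was searched for in the promoters of these genes. The pair GAANNTTC, the core of the heat shock element and palindromic, so that both strands are read at once, was chosen after the values were seen. It was in the 250 bases before an annotated start in 12 of 17 heat shock genes with a window (70.6%), against 600 of 10308 tested genes (5.82%) and 19 of 185 genes that rose at least 2-fold (10.3%). It was also in windows of the fallen HSP90AA1 and DNAJA1, and was not found in those of DNAJB4 and HSPH1. The windows shown are of 3 risen chaperone genes described above, picked because they hold the pair, with the pair in capitals, from RefSeq for GRCh38.p14. HSPA6 (chr1:161524290-161524539, plus strand) holds it 180 and 69 bases before the start. HSPB1 (chr7:76302423-76302672, plus strand) holds it 182 bases before the start, and DNAJB1 (chr19:14518398-14518647, minus strand, 1 of its windows) 77 and 47 bases before.
HSPA6: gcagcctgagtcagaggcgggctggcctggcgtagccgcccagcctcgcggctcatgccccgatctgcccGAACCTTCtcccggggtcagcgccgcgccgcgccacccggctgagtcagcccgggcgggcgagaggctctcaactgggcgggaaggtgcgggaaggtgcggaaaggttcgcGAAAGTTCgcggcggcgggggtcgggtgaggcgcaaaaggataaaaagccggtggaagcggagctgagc
HSPB1: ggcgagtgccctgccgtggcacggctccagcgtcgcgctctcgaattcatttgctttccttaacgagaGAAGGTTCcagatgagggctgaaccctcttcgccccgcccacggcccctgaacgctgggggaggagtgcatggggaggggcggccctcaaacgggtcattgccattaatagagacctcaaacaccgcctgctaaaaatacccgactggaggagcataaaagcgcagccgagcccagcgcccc
DNAJB1: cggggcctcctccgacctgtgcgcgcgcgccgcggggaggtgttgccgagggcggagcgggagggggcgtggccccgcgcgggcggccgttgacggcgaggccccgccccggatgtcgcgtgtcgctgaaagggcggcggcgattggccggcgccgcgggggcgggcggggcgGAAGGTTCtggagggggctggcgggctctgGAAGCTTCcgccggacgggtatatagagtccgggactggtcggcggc

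Many cholesterol genes showed the contrary pattern, a DEX effect that was lower under SH4-54. Without SH4-54, 21 of 25 genes of cholesterol synthesis and uptake rose and 0 fell (median 0.35). Under SH4-54, 5 rose and 3 fell (median 0.050), and the difference passed in 16 genes, all lower. MSMO1, a sterol methyl oxidase, went from 87.5, 93.1 and 87.6 CPM to 144, 146 and 149 CPM without SH4-54, and the wells did not overlap. Under SH4-54 MSMO1 stood at 69.0, 75.5 and 78.7 CPM without DEX and at 81.9, 68.3 and 92.6 CPM with it (0.12 ± 0.08, adjusted p = 0.237; interaction -0.59 ± 0.11, adjusted p = 0.0131). FDFT1, squalene synthase, gave 0.42 ± 0.05 without SH4-54 and -0.09 ± 0.05 under it (interaction -0.51 ± 0.08, adjusted p = 0.00432). Among the 3 that fell were the sterol-regulated genes INSIG1 and STARD4. INSIG1, which retains the sterol sensor in the endoplasmic reticulum, fell from 79.9, 83.8 and 91.3 CPM to 48.8, 41.0 and 62.9 CPM (-0.73 ± 0.11), against 117, 123 and 109 CPM and 111, 116 and 108 CPM without SH4-54. SCD, the desaturase that makes oleic acid, fell from 280, 281 and 285 CPM to 180, 149 and 248 CPM under SH4-54 (-0.55 ± 0.12) and gave 0.25 ± 0.12 without it (adjusted p = 0.101; interaction -0.81 ± 0.17, adjusted p = 0.0207).

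The cholesterol counts leaned on the wells with both compounds, of which well 2 was lowest and well 3 highest in MSMO1, INSIG1 and SCD. Without well 2, 9 genes rose and 3 fell, and without well 3, 3 rose and 6 fell. The interaction passed in 11 genes without well 2, in 23 without well 3 and in 7 to 9 with most other libraries left out, 15 without SH4-54 replicate 1 being the exception. In all, 6 of the 16 passed in each of the 12 fits, among them DHCR7, FDFT1, FDPS, LSS and MSMO1. The differences for SCD and INSIG1 were lost in 6 and 5 of the 12 fits.

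**Figure D4:**
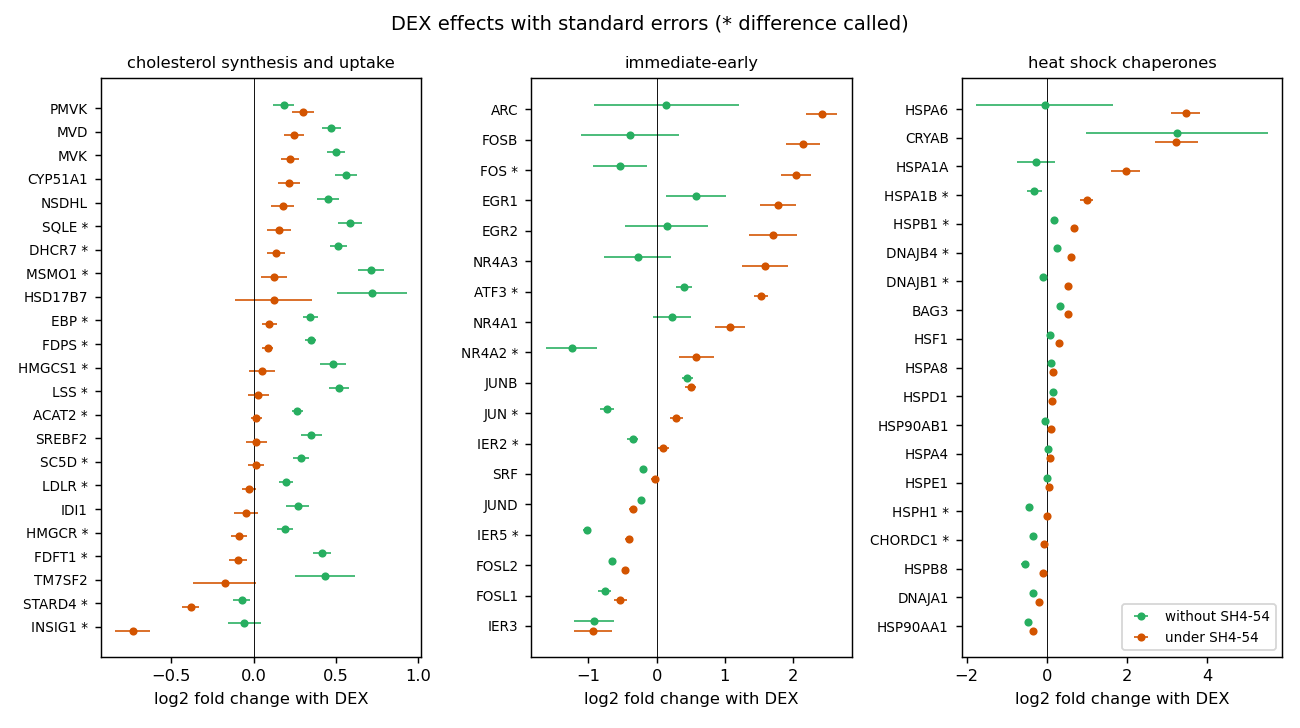
Log2 fold change with DEX (x) without SH4-54 (green) and under it (orange), with standard errors, for members of 3 lists (y), where * marks an interaction adjusted p below 0.05. Orange lies to the left of green for the 14 marked cholesterol genes drawn and to the right for the 6 marked immediate-early and 6 marked heat shock genes.

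Some interferon-stimulated and complement genes also had lower effects under SH4-54. Of 29 interferon-stimulated genes, 3 rose and 10 fell under SH4-54 (median -0.071), against 9 risen and 6 fallen without it (median 0.025). IFIT3, an antiviral RNA-binding protein, fell from 258, 271 and 263 CPM to 196, 202 and 226 CPM (-0.34 ± 0.05). Without SH4-54 IFIT3 stood at 312, 291 and 302 CPM with no drug and at 304, 311 and 301 CPM with DEX (interaction -0.36 ± 0.06, adjusted p = 0.0101). The RNA sensor DDX58 fell in both settings, by 0.65 under SH4-54 and by 0.57 without it. The difference passed in 6 interferon genes, all lower, and in 1 to 5 when any library but well 3 with both compounds was left out, without which it passed in 11. In the complement and acute phase list, 5 of 14 rose and 1 fell under SH4-54 (median 0.23), against 9 risen and 1 fallen without it (median 0.84). C3, the central complement component, stood at 2.78, 3.68 and 4.21 CPM with SH4-54 and at 3.30, 3.59 and 5.49 CPM with both compounds, which overlap (0.24 ± 0.22, adjusted p = 0.403). Without SH4-54 C3 rose from 3.6, 2.25 and 2.28 CPM to 10.2, 8.08 and 9.76 CPM (interaction -1.53 ± 0.30, adjusted p = 0.0149).

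Several genes that DEX lowered without SH4-54 were lowered less under it. IL11 fell by 2.12 on the log2 scale under SH4-54 and by 4.27 without it, where it went from 214, 230 and 245 CPM to 11.9, 11.6 and 12.4 CPM (interaction 2.14 ± 0.25, adjusted p = 0.000575). RELN, the matrix glycoprotein reelin, fell from 14.9, 13.7 and 13.9 CPM to 8.00, 10.4 and 7.29 CPM under SH4-54, and from 12.1, 11.9 and 12.2 CPM to 2.09, 1.82 and 1.62 CPM without it (interaction 1.98 ± 0.18, adjusted p = 0.00019). ANXA10, a calcium-binding annexin, fell by 1.10 under SH4-54 and by 3.12 without it (interaction adjusted p = 0.000484). The sphingosine phosphate exporter SPNS2 (-1.24 and -2.73), the hemidesmosome collagen COL17A1 (-0.73 and -2.66) and ID2, an inhibitor of helix-loop-helix factors (-0.61 and -2.04), followed the same order. In the matrix protease list, 5 members had a higher and 1 a lower effect under SH4-54, against 3 and 1 without DEX replicate 3 and 8 and 3 without well 3 with both compounds. MMP1, interstitial collagenase, stood at 25.5, 22.1 and 22.6 CPM with SH4-54 and at 26.1, 26.2 and 15.6 CPM with both compounds (-0.06 ± 0.14, adjusted p = 0.755). Without SH4-54 MMP1 fell from 18.7, 20.4 and 19.8 CPM to 8.55, 7.88 and 7.76 CPM (interaction 1.22 ± 0.21, adjusted p = 0.00919). VIM, too, did not pass under SH4-54 (-0.15 ± 0.06, adjusted p = 0.072) and fell by 0.64 without it (interaction adjusted p = 0.00949). In the amino acid transport and ATF4 list, 14 of 25 genes fell without SH4-54 and 3 under it, and 7 had a higher effect. That count was 3 without DEX replicate 2, 4 without no-drug replicate 2 or 3, DEX replicate 3, SH4-54 replicate 2 or well 1 with both compounds, and 8, with 5 lower, without well 3. SLC7A5, the leucine transporter, gave 0.06 ± 0.07 under SH4-54 (adjusted p = 0.542) and fell by 0.51 without it (interaction adjusted p = 0.00949).

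Some induced genes rose less under SH4-54. SLPI, a secreted protease inhibitor, rose from 5.05, 6.19 and 5.98 CPM to 11.3, 9.89 and 19.9 CPM under SH4-54 (1.28 ± 0.21) and from 5.32, 4.08 and 4.64 CPM to 28.1, 28.8 and 30.2 CPM without it. The SLPI difference (-1.35 ± 0.29, adjusted p = 0.0229) was lost in 6 of the 12 fits without a library. ANGPTL4 rose by 3.14 under SH4-54 and by 3.99 without it (interaction -0.85 ± 0.11, adjusted p = 0.00185), and held in all 12. With both compounds ANGPTL4 reached 68.3, 61.3 and 71.5 CPM, and with DEX alone 72.3, 71.5 and 73.2 CPM, while its level without DEX was 8.04, 8.00 and 6.75 CPM with SH4-54 and 5.04, 4.38 and 4.18 CPM with no drug. For ANGPTL4 the smaller fold under SH4-54 goes with a higher level before DEX. Of the 30 glucocorticoid-induced genes, 7 had a lower and 2 a higher effect under SH4-54. The lower count was 13 without well 3 with both compounds, 4 without SH4-54 replicate 3, DEX replicate 2 or the first no-drug well, and 5 or 6 otherwise. The higher count was 0 in 9 of the 12 fits, 1 without well 2 with both compounds, and 2 without well 3 or SH4-54 replicate 1. FKBP5 was 1 of the 7 (-0.59 ± 0.15, adjusted p = 0.0397), and lost the call in 11 of the 12 fits without a library. TSC22D3 (-0.22 ± 0.18, adjusted p = 0.517), PER1 (-0.26 ± 0.21, adjusted p = 0.528) and NR3C1 (0.05 ± 0.04, adjusted p = 0.546) did not pass.

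The 3 wells with both compounds differed among themselves in these responses. Of the 298 genes that rose at least 2-fold without SH4-54, 196 had their lowest value of the 3 in well 2 and 206 their highest in well 3, against 5106 and 5165 of all 14184 genes. Their median difference from the SH4-54 mean was 1.12, 1.00 and 1.29 on the log2 scale in wells 1, 2 and 3. Of the 385 genes that fell, 227 had their highest value in well 2, against 4950 of all 14184 genes. The medians of the 385 were -0.94, -0.72 and -0.92. The immediate-early list had medians of 0.31, 0.92 and 0.39 in the 3 wells, the heat shock list 0.16, 0.25 and 0.075, and the cholesterol list 0.046, -0.11 and 0.18. Well 2 thus combined the smallest medians of the genes responding without SH4-54 with the largest immediate-early and heat shock medians and the lowest cholesterol median. The glucocorticoid-induced list itself varied less, with 1.92, 1.80 and 1.80. The part of any difference in handling between these wells was not tested.

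**Figure D5:**
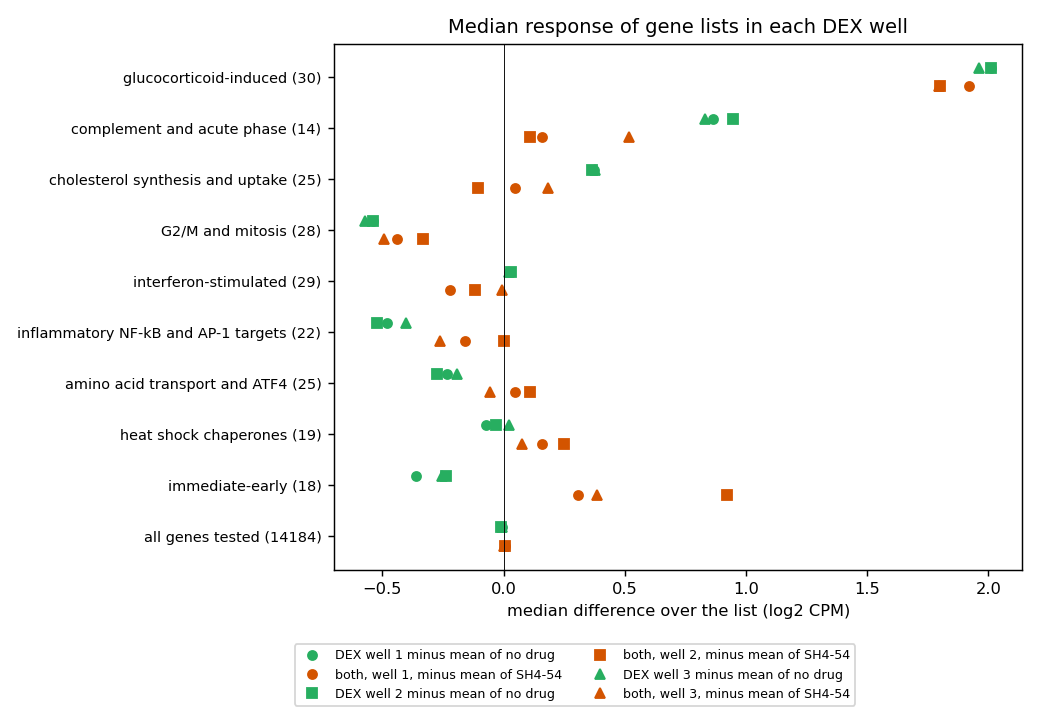
Median over each list of the log2 CPM difference (x) of each DEX well from the mean of no drug (green) and of each well with both compounds from the mean of SH4-54 (orange), with the number of genes in brackets. The green wells lie close together, while the orange wells spread, with well 2 at 0.92 in the immediate-early list and at -0.11 in the cholesterol list.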

How the data were processed

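RNA-seq was run on 12 wells of MDA-MB-231 cells, 3 in each of 4 groups. Per the labels' protocols, ribosomal RNA was removed from total RNA, libraries kept the strand, and reads were single-end. The authors deposited raw read counts per gene symbol. Per the submitters' processing notes, alignment and counting used hg19 (also named GRCh37), HISAT2 2.1.0, SAMtools and featureCounts 1.5.1. No source used here gives the gene annotation, the use of strand or the treatment of multi-mapping reads, so reads of overlapping, antisense and near-identical genes may be shared or lost. Of 26364 rows, 4474 were 0 in every library. The titles' spelling SH4-54 was followed, since the treatment label spells it SH5-54.

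The counts were fitted in edgeR 4.0.16 (R 4.3.3, limma 3.58.1) with its quasi-likelihood test, TMM scaling, filterByExpr and all 4 groups in 1 fit (8 residual degrees of freedom). P-values were adjusted by Benjamini-Hochberg over the 14184 genes left, at a threshold of 0.05. The contrasts were both compounds minus SH4-54, DEX minus no drug, and their difference. Values after ± are standard errors, and log2 CPM were computed with a prior count of 2. The fit was tested on simulated data, drawn independently for each gene and library. They held no shifts of whole wells such as those seen here, so the test does not cover such shifts.

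Named genes had to pass, reach a mean of 5 CPM in either group and have wells that did not overlap. The rule then took the 15 largest rises and 15 largest falls, the 8 largest rises and falls by CPM, up to 5 members of each of 37 gene lists by p, and the 10 largest interactions in each direction. NR3C1, FKBP5, TSC22D3, STAT3, STAT5A and STAT5B were always kept. List members outside this rule, such as ALOX15B, ZBTB16, CRISPLD2, TNFAIP3, ARC, JUN, C3, MMP1, MSMO1, FDFT1, VIM, ID2 and SLC7A5, and PPP1R15A, EEF2, LMNA and CITED2, were chosen after their values were seen, as was HSPA7. So were KLF15 and SCNN1A, which stayed below 5 CPM in every well of both groups compared. The lists, the rule and the comparison were chosen with earlier results of these data known. Alternatives were other scalings, filters and tests (DESeq2 1.42.0), a replicate block, the compared groups alone, the 10 most abundant genes removed and each library left out. The interaction fits without 1 library for named genes and list members were added after seeing the data. Promoters came from RefSeq for GRCh38.p14, not the build of the counts, matched by symbol for 10308 tested genes with 15043 windows, and served only for sequence. GAANNTTC was also chosen after seeing the data. A few genes are not reported here, singly or in figures, though they stay in the fits and in counts over lists.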

Additional observations from a re-analysis of the deposited data

Results flagged for a closer look

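Among the genes named by rule and given here, 49 had a DEX effect that differed with and without SH4-54 in the interaction test (edgeR, adjusted p below 0.05). The values are log2 differences, the effect under SH4-54 minus the effect without it. The difference passed in each of the 12 fits that left out 1 library for 21 of the 49.

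Of those 21, these genes had the higher effect under SH4-54: CCL26 (3.38), SNAI1 (3.34), FOS (2.58), IL11 (2.14), ANXA10 (2.02), RELN (1.98), COL17A1 (1.93), LINC00704 (1.52), SPNS2 (1.5), ATF3 (1.13), FST (0.86), DNAJB1 (0.63), TIMP3 (0.61), SOCS2 (0.49) and FZD7 (0.28). Those with the lower effect were ANGPTL4 (-0.85), PEG10 (-0.77), TCEAL3 (-0.71), MT2A (-0.37), IFIT3 (-0.36) and PLIN2 (-0.28). The higher group holds the chemokine, AP-1 and chaperone genes and genes that DEX lowered less under SH4-54, and the lower group holds mostly genes that DEX raised less.

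In the remaining 28 genes the call was lost in at least 1 of those fits. The effect under SH4-54 was the higher in ASB2 (2.75), PTGS2 (0.96), PLAU (0.62), SGK1 (0.56), HSPB1 (0.5), ADM (0.45), COL13A1 (0.44), INHBA (0.4), DNAJB4 (0.34), RRP12 (0.28), PSMD3 (0.24) and PSMB1 (0.14). It was the lower in SLPI (-1.35), SGPP2 (-1.15), RPS6KA2 (-0.87), SAA2 (-0.85), ST8SIA4 (-0.84), SCD (-0.81), MT1X (-0.7), INSIG1 (-0.68), FKBP5 (-0.59), FN1 (-0.57), COL8A1 (-0.45), IFIT1 (-0.45), ITGA5 (-0.45), MT1E (-0.32), STARD4 (-0.31) and KRT7 (-0.2). SAA2, MT1E and MT1X have near-identical copies, so their values are uncertain singly.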

How the results depend on the processing

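The count of 5736 genes called under SH4-54 ranged from 4846 to 5729 with 1 library left out, and was 5086 in DESeq2's Wald test and 4784 with the compared groups alone. The interaction count of 553 was the least stable: with 1 library left out it ranged from 204 to 2046, its higher part from 135 to 833 around 346, its lower part from 68 to 1213 around 207 and its part of at least 2-fold from 34 to 158 around 57. With no count filter these were 848, 459, 389 and 107, and the DESeq2 Wald test gave 754 with 370 lower. The causes were not tested. The labels do not say whether same-numbered wells are paired. Their deviations correlated at 0.0304, 0.0132 and 0.0926 between SH4-54 and both compounds. Between no drug and DEX they correlated at -0.0714, -0.0734 and 0.0209. Of the 3 wells with both compounds, 2 correlated best with the SH4-54 well of their own number. The replicate block gave 5471 calls under SH4-54, 5395 of them among the 5736, and 394 interaction calls. Of 206 named genes, 203 were called. HIST2H2BA, ATP5O, COX5A and FXYD5 were among those that lost the call in at least 1 alternative, and STAT3, STAT5A and STAT5B gained it in at least 1. No named gene changed sign while called. The 3 wells a group limit the small effects: the median standard error was 0.0637, and 0.0900 for the interaction.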
